A study of Arabidopsis thaliana with 11 samples.

Results

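The plastid genome of Arabidopsis encodes much of the photosynthetic machinery, and 35 of the 22810 probe sets on the array read 1 such gene each. A probe set was taken when it was paired with a single gene whose symbol began with psa, psb or pet followed by a capital letter, or was atpA, atpB, atpE, atpF, atpH, atpI, rbcL, ycf3 or ycf4. This gave 5 subunits of photosystem I, 2 photosystem I assembly factors (ycf3 and ycf4), 15 photosystem II genes, 6 subunits of cytochrome b6f, 6 subunits of ATP synthase and the large subunit of rubisco. All 35 matched a plastid gene of the TAIR10.1 gene table, and 8 further plastid probe sets that were paired with several genes were not used. The rule used names and no measured value.

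All plants were wild-type Columbia-0 without any transgene or treatment, and transcript levels were measured on Affymetrix ATH1 arrays, on which each gene is read by a set of short probes. Leaf samples (3 arrays) were expanding leaves taken on day 15 after germination. Stem samples (4 arrays) were the expanding upper 2 inches of stem without siliques and pedicels, and flower samples (4 arrays) were open flowers with closed buds, both from day 29. The temperature was 25 °C in the day and 20 °C in the night, with 4 plants to a pot, in a growth chamber with fluorescent light of 125 µmol per square metre and second or in a greenhouse, with a photoperiod of 16 hours except for flower replicate 4, whose label states none. By these labels leaf replicate 1, stem replicates 1 and 2 and flower replicates 1 and 2 came from the growth chamber, and leaf replicates 2 and 3, stem replicate 3 and flower replicates 3 and 4 from the greenhouse. Stem replicate 4 has a title that gives the greenhouse and a protocol that gives the growth chamber. Leaf RNA was prepared with Trizol alone, while stem and flower RNA was also passed over a silica column. Between leaf and the other tissues, therefore, tissue, plant age and RNA preparation cannot be told apart, while stem and flower share both age and preparation. The labels call the samples replicates without saying whether they came from separate plants. A p-value here sets a difference against the spread between these samples, which may not be the spread between separate plants.

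Photosystem II takes electrons from water, cytochrome b6f passes them on while pumping protons, photosystem I lifts them to ferredoxin, and ATP synthase uses the proton gradient to make ATP. Each complex is a mosaic of subunits made inside the plastid and subunits encoded in the nucleus and imported. The plastid genes lie in transcription units, several of which join genes of different complexes, and long precursor RNAs are cut, spliced and trimmed into many overlapping transcripts, so that the level of 1 gene's RNA need not follow that of its neighbour. In leaves these genes serve photosynthesis in mature chloroplasts, and the green stem and the sepals of flowers also hold chloroplasts. Most plastid mRNAs carry no stable poly(A) tail, so the signal of a plastid gene depends on how the labelled RNA was primed. The priming is not given in the sources used here, and its part in the results was not tested.

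The median deposited intensity was 194.95 to 200.9 in leaf, 192.1 to 200.8 in stem and 243.8 to 251.3 in flower, where it did not overlap the others. The highest deposited signal was 61857 to 76267 in leaf, 50472 to 87820 in stem and 36702 to 49285 in flower. Before normalisation the flower arrays therefore had another distribution of signals. Precision is limited by how few arrays there are. Probe sets were tested when at least 3 arrays had a normalised intensity of 100 or more, which left 17526. All 35 genes passed, 34 of them with such values in all 11 arrays and atpI in 10. The flower markers A9, AMS and EMS1 were each called higher in flower than in leaf and in stem, and the secondary wall markers IRX15 and GUT2 were called higher in stem than in both other tissues. A9 and AMS reached 100 only in flower arrays and IRX15 only in stem arrays. They passed the filter through the tissue where they were high, so their calls are no independent check of that tissue. In flower AMS read only 74 to 158.6. EMS1 and GUT2 also reached 100 in arrays of other tissues. The other 7 flower markers and 4 stem markers could not be matched to a named probe set. The library labelled stem replicate 3 stood apart in its control probes. Its signal ratio of the 3' to the 5' end of the transcript, which rises where RNA is broken or copied short, was 12.24 in actin, 13.05 in GAPDH and 2.723 in ubiquitin. The other 10 arrays lay between 1.827 and 8.234 for actin, between 1.944 and 5.453 for GAPDH and between 1.242 and 2.214 for ubiquitin. In ubiquitin the ratio also moved between leaf and flower, at 1.242 to 1.62 and 1.973 to 2.214, without overlap. The actin mean was 2.62 ± 0.74 (SD, n = 3) in leaf, 5.75 ± 4.38 in stem and 4.91 ± 2.28 in flower (SD, each n = 4). The stem mean includes replicate 3. The other stems read 2.673 to 4.203 in actin, 1.944 to 2.3 in GAPDH and 1.287 to 1.749 in ubiquitin. In the same order leaf read 1.827 to 3.285, 2.247 to 2.61 and 1.242 to 1.62. GAPDH in flower, at 2.154 to 5.453, overlapped leaf. The part of these ratios in the tissue differences was not tested.

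The comparison of stem with leaf asks how the plastid photosynthesis genes differ between 2 green organs. Of the 35 genes, 15 were higher in stem and 0 were lower, where a call needed an adjusted p under 0.05 in limma and a log2 difference of at least 1. Among all 17526 probe sets tested, 9.33% were called higher and 9.33% lower. The median difference of the 35 genes was 1.29 on the log2 scale, against -0.04 over all probe sets tested, and 31 of the 35 differences were above 0. In 15 genes every stem array lay above every leaf array, which was the case for 17.9% of all probe sets tested. All differences are of log2(normalised intensity + 32), and a fold given beside one is on that scale. The labels describe whole organs, so more cells with chloroplasts and more plastid RNA per cell cannot be told apart.

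**Figure D1:**
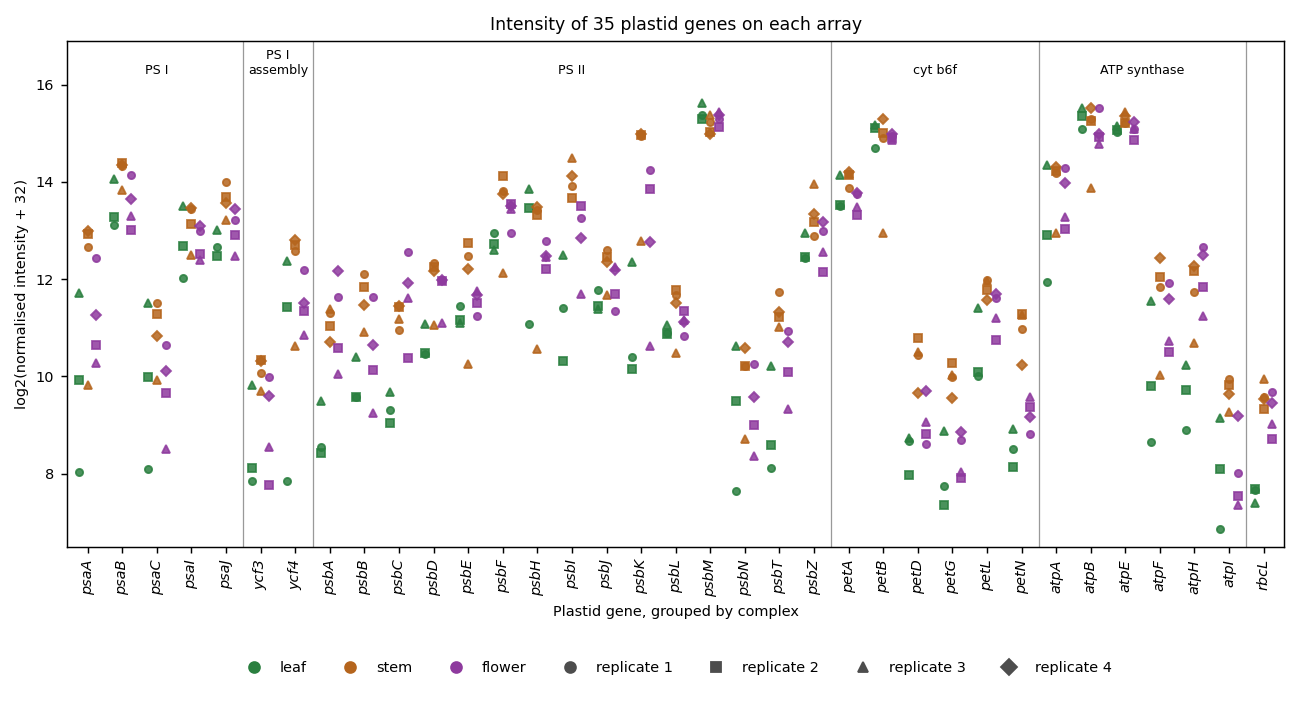
Normalised intensity of each of the 35 plastid genes on each of the 11 arrays, as log2(value + 32), grouped by complex; the single gene at the far right is rbcL, colours mark the tissue and symbols the replicate. For 31 genes the highest leaf point is leaf replicate 3 (green triangle), and for 23 the lowest stem point is stem replicate 3 (brown triangle); heights of different genes come from different probes and are not comparable.

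In photosystem II, 7 of 15 genes rose in stem, among them all 4 genes of the membrane core. The D1 protein of the reaction centre is encoded by psbA, whose normalised intensity was 344, 312 and 683 in leaf and 2483, 2053, 2623 and 1635 in stem. Every stem array was above every leaf array, and the log2 difference was 2.28 ± 0.42 (SE; limma adjusted p = 8.21e-04). The second reaction centre protein, D2, is encoded by psbD, at 1376, 1387 and 2124 in leaf and 5142, 4845, 2095 and 4582 in stem. Here stem replicate 3 fell inside the leaf range, and the difference was 1.29 ± 0.31 (adjusted p = 0.00528). The inner antenna proteins CP47 and CP43, which bind chlorophyll beside the reaction centre, are encoded by psbB and psbC. The psbB gene read 732, 725 and 1309 in leaf and 4339, 3621, 1896 and 2807 in stem, a difference of 1.73 ± 0.44 (adjusted p = 0.00756). The psbC gene read 604, 495 and 790 in leaf and 1939, 2715, 2284 and 2754 in stem, a difference of 1.90 ± 0.37 (adjusted p = 0.00133). Neither gene had overlapping arrays, and in psbC stem replicate 3 lay among the other stems.

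The largest difference of all 35 genes belonged to psbK, a small membrane subunit of photosystem II. Its intensity was 1319, 1111 and 5156 in leaf and 31408, 31902, 6975 and 32153 in stem. Stem replicates 1, 2 and 4 lay close together and stem replicate 3 lay just above leaf replicate 3. The log2 difference was 3.45 ± 0.79, or 10.9-fold (adjusted p = 0.00399). Its partner in the same transcription unit, psbI, rose by 2.64 ± 0.46 (adjusted p = 5.92e-04), from 2667, 1244 and 5766 in leaf to 15426, 13039, 22927 and 17647 in stem. In that gene stem replicate 3 was the highest array and not the lowest. The small subunit gene psbT, which takes part in the dimer of the complex, read 246, 352 and 1149 in leaf and 3352, 2339, 2050 and 2542 in stem. All stems were above the leaves, although leaf replicate 3 was well above the other leaves, and psbT rose by 2.35 ± 0.44 (adjusted p = 0.00101).

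The other 8 photosystem II genes did not pass. The genes of cytochrome b559, psbE and psbF, differed by 0.68 ± 0.43 (adjusted p = 0.25) and 0.70 ± 0.36 (adjusted p = 0.154). Their neighbours psbJ and psbL differed by 0.73 ± 0.25 (adjusted p = 0.0351, under the minimum fold) and 0.41 ± 0.26 (adjusted p = 0.237). The small subunit genes psbZ and psbM differed by 0.73 ± 0.27 (adjusted p = 0.0527) and -0.27 ± 0.15 (adjusted p = 0.186). For psbN, which encodes an assembly factor and lies on the opposite strand of the psbB unit, the difference was 0.68 ± 0.62 (adjusted p = 0.437), with leaf arrays spread from 167 to 1551. The phosphoprotein gene psbH had a difference of -0.10 with a 95% interval from -1.58 to 1.38, since 1 array of each tissue lay far below the rest. It read 2128 in leaf replicate 1 against 11319 and 14646 in the other leaves, and 1479 in stem replicate 3 against 10147 to 11436 in the other stems.

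Cytochrome b6f had the highest share of genes called, 4 of 6. The gene petN, a single-helix subunit, read 334, 248 and 450 in leaf and 1966, 2452, 2416 and 1174 in stem. The groups did not overlap, and the log2 difference was 2.41 ± 0.27, with the lowest adjusted p of the 35 genes (1.86e-05). The small subunit gene petG read 184, 131 and 435 in leaf and 980, 1207, 1009 and 723 in stem, and rose by 1.97 ± 0.33 (adjusted p = 4.61e-04). In the same transcription unit petL read 991, 1051 and 2697 in leaf and 4034, 3482, 3952 and 3020 in stem, and rose by 1.33 ± 0.31 (adjusted p = 0.00445). In neither did stem replicate 3 stand apart. Subunit IV, encoded by petD, rose by 1.90 ± 0.30 (adjusted p = 3.10e-04), from 373, 218 and 392.2 in leaf to 1363, 1748, 1410 and 771 in stem. The genes of the redox-active subunits were not called. Cytochrome f, encoded by petA, read 11595 to 18114 in leaf and 14958 to 18912 in stem and differed by 0.37 ± 0.18 (adjusted p = 0.139), and cytochrome b6, encoded by petB, by -0.45 ± 0.41 (adjusted p = 0.435). In petB stem replicate 3 read 7913, against 30426 to 40060 in the other stems.

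In ATP synthase, 2 of 6 genes rose. The ring subunit gene atpH, which turns with proton flow, read 443, 805 and 1165 in leaf and 3359, 4561, 1615 and 4871 in stem. All 4 stems were above the leaves, stem replicate 3 least so, and the difference was 2.1 ± 0.42 (adjusted p = 0.00147). The gene of the proton channel subunit a, atpI, read 85, 241 and 535 in leaf and 956, 867, 580 and 763 in stem, and rose by 1.63 ± 0.48 (adjusted p = 0.0172). The lowest stem array was just above the highest leaf array, and without leaf replicate 1 atpI differed by 1.04 and was no longer called (adjusted p = 0.0924). The peripheral stalk gene atpF, the head genes atpA and atpB and the central stalk gene atpE were not called, with differences of 1.58 ± 0.63, 0.85 ± 0.49, -0.33 ± 0.32 and 0.22 ± 0.14.

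No photosystem I subunit was called. The reaction centre gene psaA had a difference of 2.21 that was as large as many called ones, but its arrays overlapped. It read 229, 942 and 3322 in leaf and 6448, 7800, 875 and 8103 in stem, so that stem replicate 3 lay below leaf replicates 2 and 3. The standard error was 0.85 and the adjusted p 0.0581. Its partner psaB differed by 0.75 ± 0.27 (adjusted p = 0.0471, under the minimum fold). The small subunit gene psaJ had every stem array above every leaf array, with 0.90 ± 0.24 (adjusted p = 0.00937), also under the minimum fold. The smallest difference, 0.40 ± 0.32, belonged to the small subunit gene psaI, and psaC, which carries the terminal iron-sulfur clusters, differed by 1.02 ± 0.66 (adjusted p = 0.264). Of the assembly factors, ycf3 read 197, 247 and 876 in leaf and 1048, 1261, 793 and 1248 in stem, and rose by 1.51 ± 0.51 (adjusted p = 0.0336). The ycf4 gene differed by 1.62 ± 0.83 without passing (adjusted p = 0.15), and read 1540 in stem replicate 3 against 6045 to 7157 in the other stems. The ycf3 call was lost when leaf replicate 1 or 2 or stem replicate 1, 2 or 4 was left out, with adjusted p from 0.059 to 0.144.

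The large subunit of rubisco, the enzyme that fixes carbon dioxide, is encoded by rbcL, which read 172, 173 and 136 in leaf and 732, 612, 954 and 709 in stem. The lowest stem array was far above the highest leaf array, and the difference was 2.02 ± 0.23 (adjusted p = 2.23e-05). In this gene leaf replicate 3 was the lowest leaf and stem replicate 3 the highest stem. Its leaf signals were low, at the 44.4, 44.7 and 39.1 percentile of their arrays. The called genes atpI, petG and ycf3 also read low in leaf, down to the 29.2, 38.3 and 47.8 percentile. Of the 35 genes, 29 lay above the median of every array. The count of genes higher in stem depended on 2 arrays and on the scaling. Without stem replicate 3 it was 20, with atpF, psaA, psaJ, psbE and psbF added, and without leaf replicate 3 it was 22, with atpA, atpF, psaA, psaB, psaC, psaJ and ycf4 added. Scaling each array to its GapC signal, a cytosolic enzyme the authors used as standard, gave 27 higher, but called 21.3% of all probe sets tested higher and moved their median to 0.46. The deposited GapC signal was 10659 to 14103 in leaf, 7506 to 9116 in stem and 6316 to 9475 in flower. Leaf did not overlap the others, so this scaling lowers leaf against both. Each array was also centred on the median of its 69 plastid-encoded probe sets, which include these 35 genes. A change that the 35 genes share is thereby partly removed. This centring gave 7 higher (atpH, petN, psaA, psbA, psbI, psbK and psbT) and 4 lower (atpB, petB, psbH and psbM). It moved the median of all probe sets tested to -1.03 and called 2.65% of them higher. Those were only 5.55% of its calls, so most calls over the whole array were lower.

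**Figure D2:**
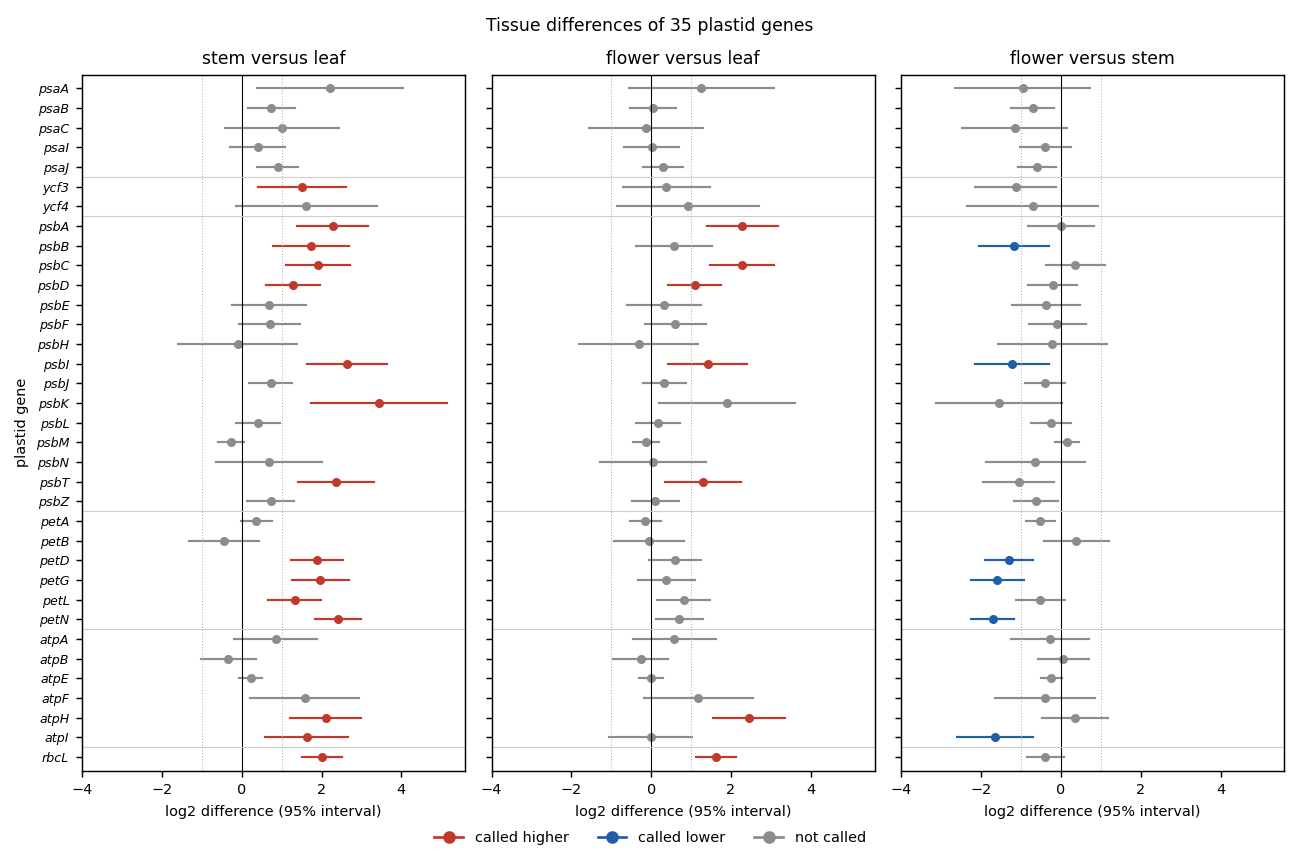
Log2 differences with 95% intervals from limma for the 35 plastid genes in the comparisons of stem with leaf, flower with leaf and flower with stem; red marks genes called higher, blue genes called lower, and dotted lines the minimum difference of 1. In stem against leaf 15 intervals are red, in flower against leaf 7 are red, and in flower against stem 6 are blue.

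Flower and leaf differed in fewer of these genes. There were 7 called higher and 0 called lower, against 9.17% and 9.27% of all probe sets tested. The median difference was 0.38, against -0.02 over all probe sets, and it changed sign under 2 other scalings, to -0.02 with median centring and to -0.40 relative to the plastid-encoded probe sets. Over all probe sets tested the median was then -0.14 and -0.80. In 6 genes every flower array lay above every leaf array, against 20.4% of all probe sets tested, which is close to their share of 17.1% among the 35 genes. This comparison and that of stem with leaf share the leaf arrays, so the direction common to both is not independent.

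Of the 7 genes that rose in flower, 5 belong to photosystem II, 3 of them to its core. The D1 gene psbA read 3130, 1495, 1027 and 4550 in flower, above all leaf arrays, with a difference of 2.28 ± 0.42 (adjusted p = 8.05e-04). The CP43 gene psbC read 604, 495 and 790 in leaf and 5987, 1289, 3077 and 3840 in flower, a difference of 2.27 ± 0.37 (adjusted p = 3.43e-04). Flower replicates 1 and 4 were the highest flower arrays in both genes, and no flower array reached down to the leaf range. The D2 gene psbD read 3996, 3948, 2152 and 4031 in flower and rose by 1.09 ± 0.31 (adjusted p = 0.0154), and lost the call without leaf replicate 1 (0.98, adjusted p = 0.0587) or leaf replicate 2 (0.99, adjusted p = 0.0641). It also lost it with trimmed mean scaling (0.95), median centring (0.68) and plastid centring (0.30). The CP47 gene psbB was not called, at 0.57 ± 0.44 (adjusted p = 0.366). In flower psbI read 9676, 11645, 3259 and 7292 and psbT 1930, 1062, 609 and 1644, so that flower replicate 3 was lowest and overlapped the leaf arrays in both. They were called at 1.41 ± 0.46 (adjusted p = 0.031) and 1.3 ± 0.44 (adjusted p = 0.038), and both lost the call when 1 of several arrays was left out.

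Outside photosystem II, atpH had the largest difference of flower and leaf, 2.45 ± 0.42 (adjusted p = 4.56e-04). It read 6457, 3611, 2393 and 5766 in flower, where even the lowest array was above all leaf arrays. The rubisco gene rbcL read 786, 385, 484 and 671 in flower and rose by 1.63 ± 0.23 (adjusted p = 1.09e-04). No gene of cytochrome b6f was called. The closest were petL, at 0.82 ± 0.31 (adjusted p = 0.0604), and petN, at 0.71 ± 0.27 (adjusted p = 0.0623). No photosystem I gene or assembly factor was called either, and their differences ran from -0.13 for psaC to 1.26 for psaA (adjusted p = 0.289). With arrays scaled to GapC, 15 genes were higher in flower, but so were 29.3% of all probe sets tested, whose median moved to 0.70. With trimmed mean scaling 2 of the 35 genes were lower (atpB and psbM), and with median centring 4 were (atpB, atpE, petB and psbM). Over all probe sets tested, these scalings called 11.7% and 7.73% higher in flower. Higher calls were 59.1% and 39.3% of all calls, so with median centring most probe sets called were lower.

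Between flower and stem the 35 genes leaned to stem, with 6 called lower in flower and 0 higher. Among all probe sets tested 8.1% were lower and 9.86% higher. The median difference was -0.51, against -0.03 over all probe sets, and it stayed below 0 under each scaling tried. In 6 genes every flower array lay below every stem array, a share of 17.1% that is close to the 16.3% of all probe sets tested. All 6 genes called lower in flower were also called higher in stem than in leaf. Both comparisons use the same stem arrays, so their common lean to stem is not independent.

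Cytochrome b6f held 3 of these 6 calls. The petN gene read 415, 630, 734 and 538 in flower, each below the lowest stem array, and fell by 1.71 ± 0.25 (adjusted p = 1.38e-04). The petG gene read 379, 209, 229 and 428 in flower and 980, 1207, 1009 and 723 in stem. These groups did not overlap either, and petG fell by 1.59 ± 0.31 (adjusted p = 0.00119). The subunit IV gene petD fell by 1.3 ± 0.28 (adjusted p = 0.00259), with flower replicate 4 at 801 just above stem replicate 4 at 771. In ATP synthase atpI fell by 1.64 ± 0.44 (adjusted p = 0.0105), from 956, 867, 580 and 763 in stem to 226, 155, 131 and 546 in flower. In photosystem II psbI fell by 1.23 ± 0.43 (adjusted p = 0.0384). The psbB gene read 3128, 1089, 571 and 1573 in flower, with replicate 1 inside the stem range, and fell by 1.17 ± 0.41 (adjusted p = 0.039). Both calls were lost when 1 of several arrays was left out. All 7 genes called higher in flower than in leaf were also called higher in stem than in leaf. Of these only psbI was called between stem and flower. Among the others psbC differed by 0.36, psbD by -0.20 and psbT by -1.06 (adjusted p = 0.0598). The difference was 0.00 for psbA, with a 95% interval from -0.83 to 0.83, 0.35 for atpH, from -0.48 to 1.18, and -0.38 for rbcL, from -0.85 to 0.08. With median centring the count of genes lower in flower was 14. That setting called 7.58% of all probe sets tested higher, only 39.6% of its calls, so most of its calls were lower in flower.

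Averaged within each complex, the genes ranked stem above flower above leaf in all 4 complexes, except that flower fell below leaf in 2 complexes with median centring and in 3 with plastid centring, and the arrays of a tissue were far apart. Photosystem I had a mean log2 intensity of 10.78, 11.67 and 12.76 in leaf, of 13.19, 13.09, 11.86 and 13.04 in stem and of 12.68, 11.75, 11.39 and 12.31 in flower. Leaf replicate 3 was therefore above stem replicate 3 and all flower arrays. Photosystem II had means of 10.76, 10.90 and 11.66 in leaf and of 12.64, 12.61, 11.73 and 12.56 in stem. The lowest stem array was just above the highest leaf array, and flower lay between at 11.90 ± 0.38 (SD, n = 4).

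The cytochrome b6f means were the most even in stem, at 12.02, 12.21, 11.81 and 11.75, all above the leaf values of 10.52, 10.36 and 11.21. This was the complex in which stem replicate 3 did not stand apart. The mean over leaf arrays was 10.70 ± 0.45 (SD, n = 3). Stem had 11.95 ± 0.21 and flower 11.08 ± 0.21 (SD, each n = 4). ATP synthase had means of 11.08, 11.82 and 12.65 in leaf and of 13.03, 13.12, 12.04 and 13.24 in stem. As in photosystem I, stem replicate 3 lay below leaf replicate 3 while the other stems lay above. Centred on the plastid-encoded probe sets, flower was below leaf for photosystem I (-0.49), cytochrome b6f (-0.40) and ATP synthase (-0.13), and with median centring it was below leaf for photosystem I (-0.22) and cytochrome b6f (-0.04).

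**Figure D3:**
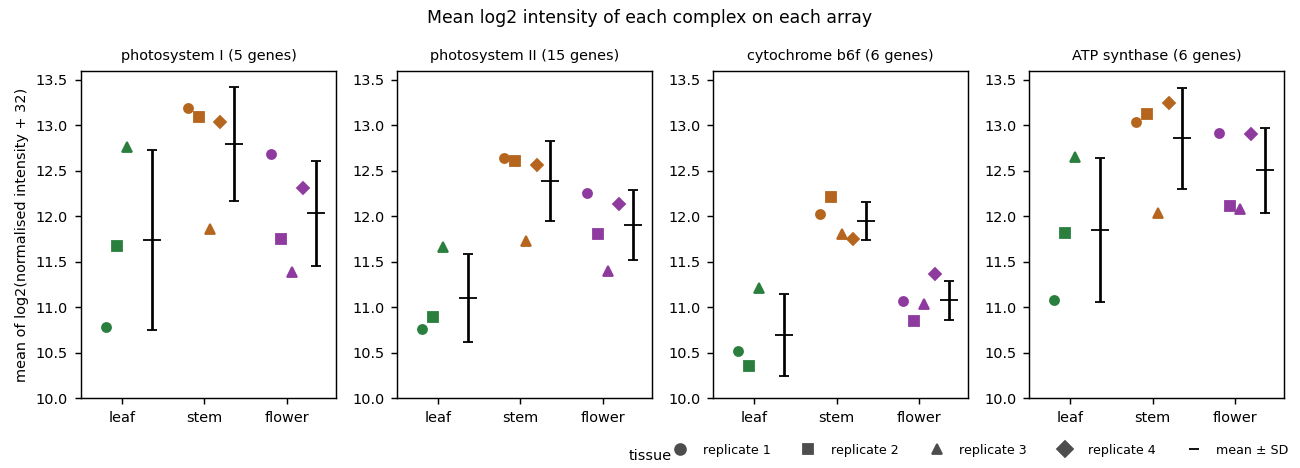
Mean of log2(normalised intensity + 32) over the genes of each complex on each array, by tissue, with symbols for replicates and bars for the tissue mean ± SD (leaf n = 3, stem and flower n = 4). Stem replicate 3 (triangle) is the lowest stem array in photosystem I (11.86), photosystem II (11.73) and ATP synthase (12.04) but not in cytochrome b6f (11.81), and leaf replicate 3 is the highest leaf array in all 4; flower falls to or below leaf in some complexes under median centring and under plastid centring.

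Variation between arrays of 1 tissue was larger for these genes than for most of the array. The SD within tissues had a median of 0.60 on the log2 scale over the 35 genes and of 0.32 over all probe sets tested. It exceeded the latter in 32 of the 35 genes, and 17 genes were among the 10% of probe sets with the highest SD. The exceptions were atpE, psbM and petA, with SDs of 0.12, 0.16 and 0.24. The highest SDs were those of psaA (1.43), ycf4 (1.4) and psbK (1.34).

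In leaf, replicate 3 was the highest array for 31 of 35 genes, and among all probe sets tested for 28.3%. In 20 of the 35 genes replicate 1 was also the lowest. The photosystem I assembly gene ycf4 ranged from 199 through 2718 to 5294, a 26.6-fold span. The reaction centre gene psaA spanned 14.5-fold and psaC 12.0-fold, from 240.5 through 989 to 2897. For 4 genes, psbE, psbF, psbJ and rbcL, leaf replicate 3 was the lowest array, and the first 3 of these share a transcription unit. Leaf replicate 1 came from the growth chamber and the other leaves from the greenhouse. The actin 3'/5' ratios of the leaf arrays were 1.827, 2.761 and 3.285. The part of either in the spread was not tested.

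In stem, replicate 3 was below all other stems for 23 of 35 genes and above all for 6, against 29.6% and 33.1% of all probe sets tested. All 5 photosystem I subunits and both assembly factors were below, as were 5 of 6 ATP synthase genes and 10 of 15 photosystem II genes, but only 1 of 6 cytochrome b6f genes. The largest gaps to the mean of the other stems were those of psaA, which was lower by 8.51-fold, and psbH, which was lower by 7.32-fold. The genes above all other stems were psbA, psbI, psbM, psbZ, atpE and rbcL. This array is the one with the highest 3'/5' ratios, and the only stem array that both its title and its protocol place in the greenhouse. The part of either was not tested.

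Neighbours in 1 transcription unit parted in stem replicate 3. In the psbK unit, psbK was 2.18 below the other stems on the log2 scale while psbI was 0.59 above them. The psbB unit joins photosystem II and cytochrome b6f genes, and its members psbB, psbT, psbH, petB and petD stood at -0.89, -0.40, -2.84, -2.11 and 0.20. In the atpB unit atpB stood at -1.48 and atpE, which follows it directly, at 0.18. In the psbD unit, psbD stood at -1.20, psbC at -0.09 and psbZ at 0.82. Only 2 units of at least 3 genes moved as a whole, the psbE unit (psbE, psbF, psbL and psbJ, from -2.21 to -0.79) and the atpI unit (atpI, atpH, atpF and atpA, from -2.08 to -0.54).

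**Figure D4:**
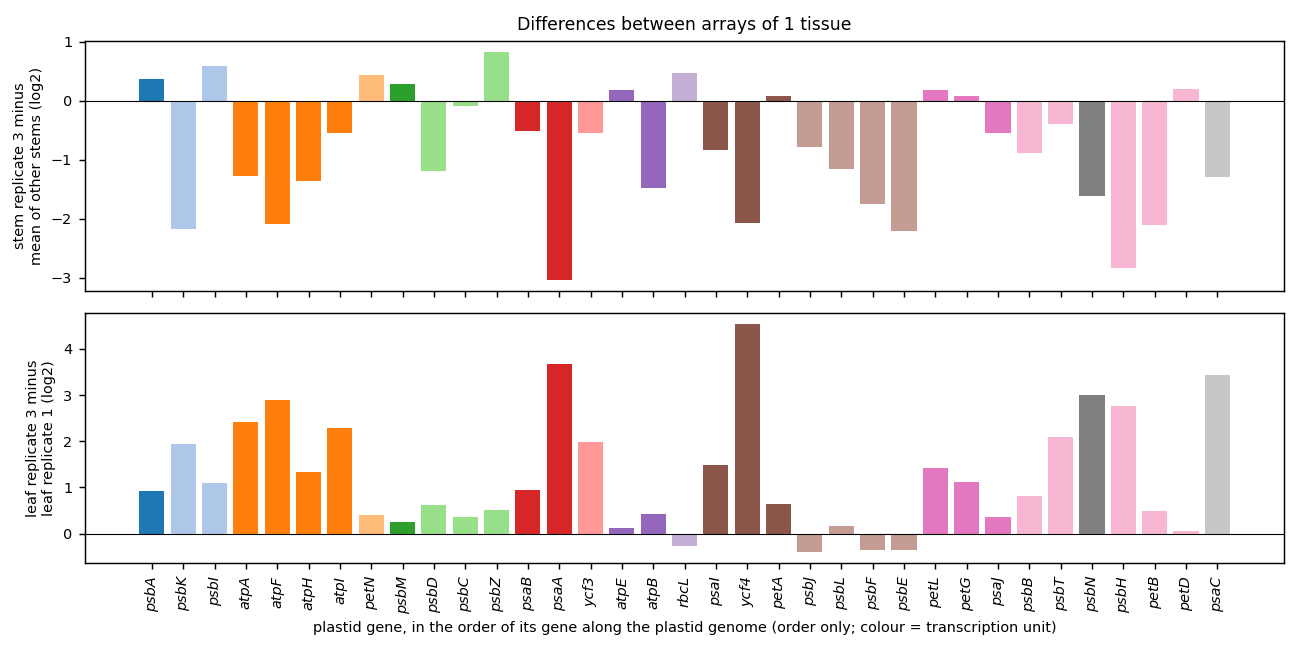
Log2 difference of stem replicate 3 from the mean of the other 3 stem arrays (upper) and of leaf replicate 3 from leaf replicate 1 (lower), for each of the 35 genes in their order along the plastid genome, coloured by transcription unit. Members of 1 unit can point in opposite directions in stem replicate 3, such as psbK (-2.18) and psbI (0.59), while leaf replicate 3 is above leaf replicate 1 in most genes, by up to 4.53 for ycf4.

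The transcription units also held unequal tissue differences. In the psbB unit the difference of stem and leaf ran from -0.45 for petB through 1.73 for psbB to 2.35 for psbT. Within the atpI unit it ran from 0.85 for atpA to 2.1 for atpH, and the difference of flower and leaf from -0.02 for atpI to 2.45 for atpH. The psbE unit ran from 0.41 to 0.73 in stem against leaf and from 0.17 to 0.60 in flower against leaf. Differences between genes of a unit were not tested.

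The genes psbM, atpE, atpB, petB, petA and psaB had signals at or above the 98.7th percentile of their array on every array, and the order of their tissue means depended on quantile normalisation in 4 of them. Before it, at a common trimmed mean, psbM read 57740 ± 10890 in leaf (SD, n = 3), while stem had 40350 ± 10360 and flower 28300 ± 4188 (SD, each n = 4). After it, the means were 44280, 36650 and 40620. The atpE gene likewise read 44800 ± 4081 in leaf, 43350 ± 8958 in stem and 24770 ± 4078 in flower before, and 34570, 40400 and 34420 after. The order of flower and stem turned for psbM, and also for petB, from 28440 ± 13470 in stem and 22270 ± 2127 in flower to 27830 and 31070. For atpE the order of leaf and stem turned, and for psaB that of leaf and flower, from 14250 and 10290 to 11880 and 12280. None of the 6 genes was called between tissues after quantile normalisation.

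Many partners of these proteins are encoded in the nucleus, and 60 of their genes were listed by locus: subunits of the same complexes, light-harvesting proteins, electron carriers, the small subunit of rubisco and its activase. Named probe sets existed for 11 of these, and all 11 were tested. In stem against leaf none was called in either direction, with a median of -0.46, while the plastid genes had 15 calls and a median of 1.29. In flower against leaf the 11 nuclear genes had a median of -1.13. Of them 7 were lower and 0 higher, against 9.27% and 9.17% of all probe sets tested. The 7 lower genes were the minor antenna genes LHCB4.2 (-1.72 ± 0.26, adjusted p = 1.69e-04) and LHCB4.1 (-1.13), the photosystem II gene PSBY (-1.54), the rubisco activase gene RCA (-1.37), the photosystem I genes PSAE1 (-1.32 ± 0.15, adjusted p = 1.56e-05) and PSAN (-1.21), and the ATP synthase gene ATPC1 (-1.07). In flower against stem 2 were lower, LHCB4.2 (-1.24) and PSAE1 (-1.04), against 8.1% of all probe sets tested, with a median of -0.75. The difference between plastid and nuclear genes was not tested as such, and the 49 nuclear genes without a named probe set were not analysed here.

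**Figure D5:**
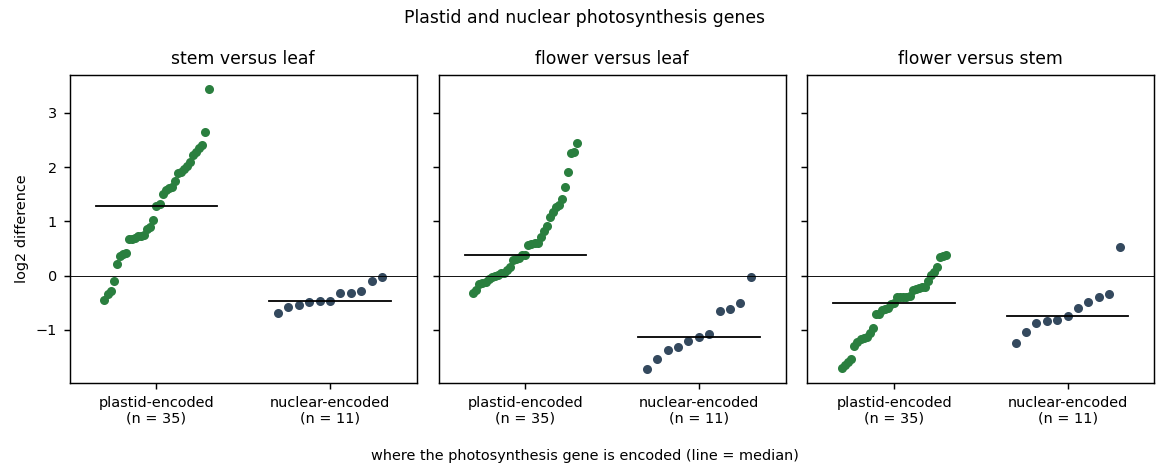
Log2 differences of the 35 plastid-encoded and the 11 tested nuclear-encoded photosynthesis genes in each tissue comparison; each point is 1 gene, sorted by value within its group, and the line is the median. The medians are 1.29 and -0.46 in stem against leaf, 0.38 and -1.13 in flower against leaf and -0.51 and -0.75 in flower against stem; the plastid median in flower against leaf is below 0 under median and plastid centring.

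Of 14 nuclear genes for plastid RNA processing and photosystem assembly, 5 were tested. PYG7, which is needed for photosystem I to accumulate, was lower than in leaf in both, with a difference of -1.04 ± 0.17 (adjusted p = 4.28e-04) in stem and of -1.47 ± 0.17 (adjusted p = 2.19e-05) in flower. LPA1, a photosystem II assembly factor, and HCF101, which supplies iron-sulfur clusters to photosystem I, were lower in flower, at -1.18 and -1.11. No gene of the lists of sigma factors, plastid RNA decay or photosystem I light harvesting had a named probe set.

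Other plastid genes were set beside the 35. Of the 10 genes of the NDH complex, which cycles electrons around photosystem I, 5 were higher in stem than in leaf (such as ndhG, 3.03 ± 0.43, and ndhF, 2.29 ± 0.31) and 0 lower. In flower none was called against leaf, and 5 were lower than in stem (ndhF, -2.91 ± 0.29, and ndhG, -2.81 ± 0.40, among them). Of the 19 genes for plastid RNA polymerase and ribosomal proteins, 6 were higher in stem and 3 in flower than in leaf, and 2 were lower in flower than in stem. Of 19 tested probe sets for mitochondrial genes, several of which read nad1 or nad5, 5 were higher in stem and 2 in flower than in leaf, with medians of 0.74 and 0.23. In flower 1 of these mitochondrial probe sets was lower than in stem. Among all probe sets tested, 9.33% were higher in stem and 9.17% higher in flower than in leaf. The share lower in flower than in stem was 8.1%. The counts of 1 or 2 among 19 are near these shares. Organelle genes outside photosynthesis also had calls higher in stem than in leaf. Leaf replicate 3 was the highest leaf array for all 10 NDH genes and for 18 of 19 expression genes, but for 9 of 23 mitochondrial probe sets.

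The comparison of growth chamber and greenhouse, with tissue as a covariate in the 10 arrays with 1 stated site, called 0 of the 35 genes. It called 0% of all 17526 probe sets tested in limma, where 1946 had an unadjusted p under 0.05, among them 2 of the 35 genes. The largest difference was that of psbK, higher in the growth chamber by 1.39 ± 0.60 (adjusted p = 0.438). A further limma fit tested whether the site difference was unequal between tissues. Its adjusted p was under 0.05 for 0.759% of all probe sets tested and for 6 of the 35 genes, psbH (0.00202), petB (0.00446), psbE (0.00737), ycf4 (0.0087), psbF (0.0465) and psbJ (0.0499). Leaf replicate 1 was the only growth chamber leaf and stem replicate 3 the only greenhouse stem in that fit, and each is an array at the edge of its tissue for many of these genes. With leaf and flower arrays alone none of the 35 genes passed (lowest adjusted p = 0.0553), and with stem and flower arrays alone only psbE did (adjusted p = 0.0468).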

How the data were processed

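Per the labels, signals come from Microarray Suite 5.0 (target 500), and the authors state a further factor that sets GapC to 8500. The deposited intensity columns have a trimmed mean of 500, so that factor is not in them. Columns were rescaled to this trimmed mean (2% at each end), quantile normalised without the 64 control probe sets and taken as log2(value + 32). Probe sets with at least 100 in at least 3 arrays entered a limma model (version 3.58.1, R 4.3.3, eBayes with a trend), 1 fit of 3 tissue means to 11 arrays. Two-sided p-values were adjusted after Benjamini and Hochberg over all 17526 probe sets. The site fits left out stem replicate 4. The pipeline was tested on simulated data.

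Genes came from the platform's probe table, which pairs 13513 probe sets with 1 gene, 503 with several and 8730 with none, so lists are covered in part (21 of 102 loci). The members, the lists and the tests were chosen with earlier results of these data known. Every member could be named. Those called, those with the largest and smallest difference of stem and leaf in a complex, and those singled out for their spread between arrays, which were chosen after their values were seen, were described in full. Up to 2 called genes per direction were named from a list, but all 7 nuclear genes lower in flower were named after their values were seen. Alternatives were other scalings, pseudocounts and filters, a fit without trend, calls without a minimum fold, growing site as covariate, replicate number as a block, 2 tissues at a time, other sites for stem replicate 4 and leaving out each array. Sequences were not used here.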

Additional observations from a re-analysis of the deposited data

Results flagged for a closer look

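Among 78 groups of 4 arrays (each gene and each complex mean in stem and in flower), 13 had a lowest array whose gap to the next, divided by the whole range, was above the critical value of Dixon's test, which chance alone gives in about 1 group of 20. They were 16.7% of the groups, and genes of 1 transcription unit are not independent groups. Stem replicate 3 was the low array in 11 of them. The gap ratio was 0.985 for psbK, 0.941 for psbH, 0.911 for atpA, 0.896 for psaA and 0.896 for psaB. It was 0.889 for ycf4, 0.871 for psbD, 0.843 for atpB and 0.83 for petB. For the mean of photosystem II it was 0.915 and for the mean of photosystem I 0.886. In flower, psbD was low in replicate 3 (0.967), at 2152 against 3948 to 4031, and psbF was low in replicate 1 (0.84), at 7880 against 11160 to 11922.

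The difference between growth chamber and greenhouse was unequal between tissues for 6 genes, by the adjusted p of the interaction in limma: 0.00202 for psbH, 0.00446 for petB, 0.00737 for psbE, 0.0087 for ycf4, 0.0465 for psbF and 0.0499 for psbJ. These values rest on leaf replicate 1 and stem replicate 3, each alone in its site and tissue.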

How the results depend on the processing

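The counts of genes called kept their direction with a pseudocount of 1 or 100, another filter and a fit without trend. They also did without a minimum fold, with growing site as covariate, with a replicate block and with 2 tissues at a time. Every such count was within 1.5 times of the one reported. The means of the complexes were recomputed only for the pseudocounts and the scalings, and kept their direction with both pseudocounts. GapC scaling gave 27 higher in stem than leaf (median 1.90) and 15 higher in flower than leaf. It moved the means of photosystem II to 1.84 and of cytochrome b6f to 1.80 in stem against leaf, and of cytochrome b6f to 0.82 in flower against leaf. It moved the median of all probe sets to 0.46, 0.70 and 0.17 in stem against leaf, flower against leaf and flower against stem, and the share of calls that were higher to 85.7%, 89.5% and 66.0%, from 50%, 49.7% and 54.9%. Trimmed mean scaling gave 2 lower in flower than leaf. Median centring gave 4 higher and 4 lower in flower than leaf and 14 lower in flower than stem. It moved photosystem II to 0.32 and -0.96, cytochrome b6f to -0.036 and -1.3 (flower against leaf and against stem) and ATP synthase to 0.019 in flower against leaf. Centring on plastid-encoded probe sets gave 7 higher and 4 lower in stem than leaf (median 0.29) and 3 higher in flower than leaf (median -0.40). It moved the median of all probe sets tested to -1.03 and -0.80 in these comparisons. The means in stem against leaf and flower against leaf were then 0.063 and -0.49 for photosystem I, 0.29 and 0.013 for photosystem II, 0.26 and -0.40 for cytochrome b6f and 0.015 and -0.13 for ATP synthase. The share of calls that were higher was 59.1% and 64.3% in the 2 flower comparisons with trimmed mean scaling, 39.3% and 39.6% with median centring, and 5.55%, 10.6% and 70.8% in the 3 comparisons with plastid centring. Leaving out 1 array gave 13 to 22 higher in stem than leaf (median 0.87 to 1.79), 4 to 10 higher in flower than leaf (median 0.26 to 0.73; 4 without leaf replicate 1 or 2, with 0 lower throughout) and 4 to 8 lower in flower than stem (median -0.74 to -0.36). Leaving out stem replicate 3 and leaf replicate 1 together, chosen after seeing the data, gave 19 higher in stem than leaf. There atpI and ycf3 were lost, and atpF, psaA, psaJ, psbE, psbF and psbJ were added. The same setting gave 4 higher and 1 lower (psbH) in flower than leaf and 10 lower in flower than stem. With the replicate block 14, 5 and 5 genes were called, losing ycf3 in stem against leaf, psbI and psbT in flower against leaf and psbI in flower against stem. The labels do not pair the samples. Deviations of same-numbered arrays correlated at -0.10 to -0.03 for leaf and stem, at -0.16 to 0.02 for leaf and flower and at 0.09 to 0.15 for stem and flower, where every array correlated best with its own number. No site setting called any of the 35 genes. GapC scaling divides each array by a signal that was higher in leaf. What else lay behind the shifts between settings was not tested.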
